A study of Mus musculus with 7 samples.

Results

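Collagen genes were examined in whole liver of mice that lack Rbpj in the liver and in control mice. Members were chosen by name alone, as all gene probes of the array whose gene name is Col, a number, the letter a and a number, which gave 66 of 55681 probes and 44 of 35715 gene names. The Rbpj-/- group consisted of 3 AlfpCre+ Rbpj flox/flox mice, arrays -/-_N3, -/-_N5 and -/-_2866, and the Rbpj+/+ group of 4 AlfpCre- Rbpj flox/flox mice, arrays +/+_1155, +/+_1156, +/+_1024 and +/+_991. Both groups carry the floxed allele on a C57BL/6J background and were 4 weeks old and untreated, and the livers of the Rbpj-/- mice were cholestatic per the labels. The AlfpCre transgene is driven by albumin and alpha-fetoprotein regulatory elements and so acts in the hepatoblast-derived cells, hepatocytes and cholangiocytes, while the mesenchymal, endothelial and blood cells of the liver keep Rbpj. Genotype and cholestasis coincide in every mouse, so they cannot be told apart in these samples.

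Collagens are made of 3 chains wound into a triple helix, in which glycine recurs at a spacing of 3 residues. The fibrillar collagens (types I, III and V among them) build the cables of connective tissue, whereas type IV collagen forms the sheet-like network of basement membranes. In injured liver, hepatic stellate cells and portal fibroblasts that turn into myofibroblasts are the main known source of fibrillar collagen, and sinusoidal endothelium and bile ducts contribute to type IV collagen. Hepatocytes are a known source of Col18a1.

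Each gene was read with probes of 60 bases, all given with their sequence, and 63 of the 66 have a design position in mm9, on the chromosome that the RefSeq gene table lists for the gene in each case. To show what the repeated part of a collagen message looks like, and how rarely the array reads it, the probes with a glycine codon at every position of a frame with a spacing of 3 codons were sought. There were 2 among the 66 member probes and 7 among all 55681. They are printed 5′ to 3′ with the 6 glycine codons in capitals, the first from chr4:47283786-47283845 and the second from chr3:130270497-130270556 (mm9, plus strand).
Col15a1 probe: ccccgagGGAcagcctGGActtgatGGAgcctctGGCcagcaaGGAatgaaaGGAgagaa
Col25a1 probe: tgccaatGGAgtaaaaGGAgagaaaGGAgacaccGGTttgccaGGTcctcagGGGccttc
Neither gene had a tested probe, and the probes that carry the results below hold no such uninterrupted repeat. Among the member probes, 1 pair from different genes shared 15 bases in a row. Whether a probe lies in coding or untranslated sequence was not determined.

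All values below are log2 of the background-subtracted intensity minus the 75th percentile of the array, so that 0 is the level of that percentile. Levels are compared between arrays for 1 probe. They are not compared between genes, except that marker signals are summed over lists. Testing required that every array of 1 genotype or of both read the probe well above background, and a gene is given by its brightest tested probe. Probes well above background made up 41.1% to 64.9% of an array. The array +/+_1156 and the array -/-_N3 stood apart, with a median intensity of 18.7 and 29.6 against 4.99 to 7.75 on the other 5 arrays, and with 37 and 48 member probes above background against 23 to 28. All arrays lay on 1 slide, with the Rbpj+/+ and Rbpj-/- arrays in different rows, so row and genotype cannot be told apart. Rbpj itself, read by its brighter probe at chr5:54048503-54048562 (mm9, plus strand), was 0.60 ± 0.34 (SD, n = 4) in control liver against -0.54 ± 0.22 (SD, n = 3) without Rbpj, with no overlap (limma, adjusted p = 0.0115), in the direction of the labels. The RNA that remains is whole-liver RNA and includes cells without Cre, and whether the probe lies in the deleted part is not known.

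Of the 44 collagen genes, 23 could be tested, 7 of 11 fibrillar genes, all 6 type IV genes and 10 of 27 others. In Rbpj-/- liver, 12 of the 23 were higher and 3 were lower at an adjusted p below 0.1 (limma, Benjamini-Hochberg over all 24548 tested probes), where 14.6% of all 18771 tested genes were higher and 19.6% were lower. Of the 12, Col4a3 was above background in 0 of 4 controls and Col12a1 in 1 of 4, so both entered the test through the Rbpj-/- mice alone, in which they were high. The other 10 and the 3 lower genes belong to the 20 members that were above background in every mouse, whose median log2 fold change was 0.66. When probes were tested only if every mouse read them, 11 of 20 collagens were higher and 3 lower, against 13.8% and 22.8% of 16556 genes. The genotypes did not overlap for 11 collagens that were higher and 3 that were lower. Of all 18771 tested genes, 2889 did not overlap and were higher and 3970 were lower (36.5% in either direction). The lower count of the collagens is no larger than that share. Over the 23 collagens the log2 fold change had a median of 0.95, against -0.13 over all tested genes, and 17 of the 23 (73.9%) were above 0, against 42.2% of all genes. The array -/-_N3 was the highest of all 7 for 11 of the 12 collagens that rose, and the array +/+_1156 the lowest for 9. Relative to the Rbpj+/+ mean, the median of these 12 genes was 1.67 on -/-_N3, 1.27 on -/-_N5 and 1.01 on -/-_2866. These genes were chosen as higher on the same arrays, so their shared direction is no separate support. Over all 23 tested collagens, called or not, the medians were 1.0 on -/-_N3, 0.58 on -/-_N5 and 0.55 on -/-_2866. On the Rbpj+/+ arrays the medians over the 23 were -0.23 to 0.08. Without -/-_N3, without -/-_N5, or without both -/-_N3 and +/+_1156, 10 collagens were called higher, and without a filter on dim probes 4 were. With normexp background correction, which adds an offset of 50 to each signal and so narrows the differences of dim probes, 11 were called higher and the median over the 23 was 0.19. The count of lower collagens was 1 without a filter on dim probes, without +/+_1024, without +/+_991, without -/-_N3 or without -/-_N5. In whole liver, more or fewer cells of a type and a change of RNA per cell cannot be told apart.

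**Figure D1:**
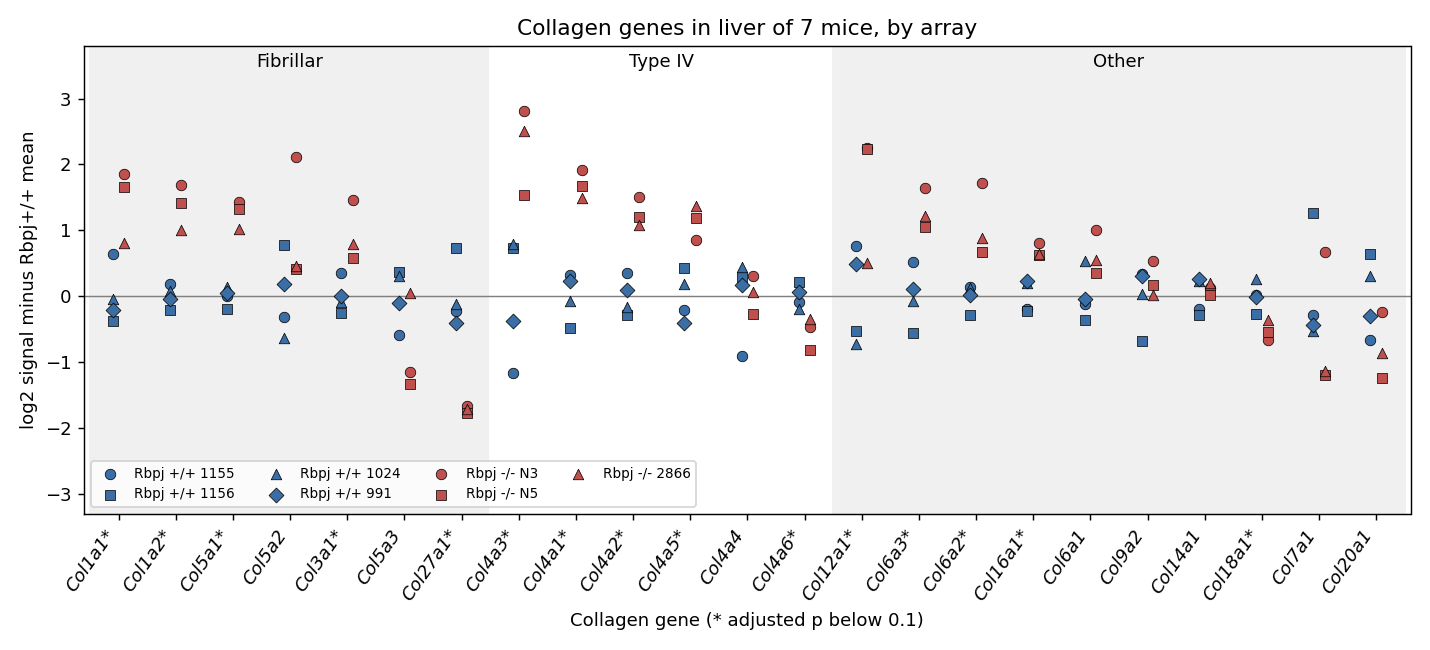
Log2 signal of the 23 tested collagen genes on each of the 7 arrays (y axis, minus the mean of the 4 Rbpj+/+ arrays of that gene), grouped as fibrillar, type IV and other, with Rbpj+/+ in blue and Rbpj-/- in red and 1 symbol per mouse. A star marks the 15 genes called at an adjusted p below 0.1, and -/-_N3 (red circle) is the highest point for 11 of the 12 that rose.

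Among the fibrillar genes, the genes of the main fibrils of scar tissue were higher and Col27a1 was lower. Of the 7 tested, 4 were higher, 1 was lower and 2 did not pass, with a median log2 fold change of 1.0. Over all tested genes 14.6% were higher and 19.6% lower, so the lower count is no larger than that share. Col1a1 and Col1a2 encode the chains of type I collagen, the most abundant fibril of fibrotic liver. Col1a1, read at chr11:94813115-94813174 (mm9, plus strand), was at 3.92, 2.90, 3.24 and 3.08 in the mice +/+_1155, +/+_1156, +/+_1024 and +/+_991 and at 5.14, 4.94 and 4.09 in the mice -/-_N3, -/-_N5 and -/-_2866. The mouse -/-_2866 was just above the highest control, while the other two were more than 1 unit above it. The log2 fold change was 1.44 ± 0.33 (SE, adjusted p = 0.0156). Col1a2, read at chr6:4490619-4490678 (mm9, plus strand), was at 4.63, 4.23, 4.53 and 4.40 in Rbpj+/+ and at 6.14, 5.87 and 5.45 in Rbpj-/- liver. The controls lay within a narrow band and all 3 Rbpj-/- values were clear of it, with a log2 fold change of 1.37 ± 0.22 (SE, adjusted p = 0.00420), a 2.58-fold higher signal.

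Col3a1 encodes type III collagen, which forms fine reticular fibres together with type I. It was at 4.85, 4.25, 4.41 and 4.50 in Rbpj+/+ and at 5.97, 5.09 and 5.30 in Rbpj-/- liver, without overlap. The log2 fold change was 0.95 ± 0.26 (SE, adjusted p = 0.0307). Col5a1, a chain of type V collagen that starts fibrils and sets their width, was at 0.91, 0.72, 1.06 and 0.95 in Rbpj+/+ and at 2.34, 2.23 and 1.93 in Rbpj-/- liver. The spread within each genotype was small (SD of 0.14 and 0.21) against a difference of 1.26 ± 0.19 (SE, adjusted p = 0.00341). The other chains of type V gave no call. Col5a2 ranged from -3.08 to -1.67 in Rbpj+/+ and from -2.03 to -0.33 in Rbpj-/- liver. The difference of 1.0 had a 95% interval from -0.08 to 2.07 (adjusted p = 0.156). The probe was above background in 3 of 4 controls, so it entered the test through the Rbpj-/- mice alone. It passed without +/+_1156 (adjusted p = 0.0910), with quantile normalisation (0.0582) and with the authors' value table (0.0582). Col5a3 had a log2 fold change of -0.81 with an interval from -1.65 to 0.04 (adjusted p = 0.145). Its Rbpj-/- values were 1.88, 1.69 and 3.08, the last from mouse -/-_2866, and without -/-_2866 or without the mouse +/+_1155 it passed as lower (adjusted p = 0.0358 and 0.0962).

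Col27a1, a fibrillar collagen best known from cartilage, went the opposite way. It was at -1.30, -0.35, -1.20 and -1.49 in Rbpj+/+ and at -2.76, -2.87 and -2.80 in Rbpj-/- liver. The 3 Rbpj-/- values lay close together (SD of 0.05) and below each control, and the signal fell by 1.72 on the log2 scale (SE 0.28, adjusted p = 0.00429). This was a dim probe, with intensities of 25.0 to 67.2 in Rbpj+/+ and 17.0 to 21.0 in Rbpj-/- liver, though well above background on all 7 arrays, and with normexp correction it fell by 0.80 (adjusted p = 0.00476). Col1a2, Col5a1 and Col27a1 were called in each of the 19 alternatives to the processing.

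To show the sequence ahead of the fibrillar genes that rose together, the stretch upstream of the RefSeq start site is printed 5′ to 3′ for those with an entry, up to 250 bases and ended before the first annotated base of any transcript (GRCm38.p6, plus strand in each case). Capitals mark 3 boxes found at many promoters, on either strand, the CCAAT box (CCAAT), the TATA box (TATAAA) and the GC box (GGGCGG). The stretches are chr6:4505368-4505617 for Col1a2, chr1:45311288-45311537 for Col3a1 and chr2:27886175-27886380 for Col5a1.
Col1a2 upstream: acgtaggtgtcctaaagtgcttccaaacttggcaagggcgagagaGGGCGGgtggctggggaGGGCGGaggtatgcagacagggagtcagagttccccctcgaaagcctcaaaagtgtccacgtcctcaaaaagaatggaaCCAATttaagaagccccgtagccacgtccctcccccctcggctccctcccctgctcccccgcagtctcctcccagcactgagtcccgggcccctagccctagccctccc
Col3a1 upstream: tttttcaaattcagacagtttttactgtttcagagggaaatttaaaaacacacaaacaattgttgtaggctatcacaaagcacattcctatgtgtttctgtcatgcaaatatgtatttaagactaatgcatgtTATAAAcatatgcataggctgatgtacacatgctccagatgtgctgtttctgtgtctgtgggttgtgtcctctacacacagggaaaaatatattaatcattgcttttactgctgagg
Col5a1 upstream: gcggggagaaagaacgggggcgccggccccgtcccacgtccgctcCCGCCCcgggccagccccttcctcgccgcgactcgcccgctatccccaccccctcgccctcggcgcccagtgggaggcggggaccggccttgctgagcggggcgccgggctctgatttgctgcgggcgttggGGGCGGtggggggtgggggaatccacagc
The 3 stretches differ in composition, with 62.0%, 35.2% and 77.7% G and C. Col1a2 holds 1 CCAAT and 2 GGGCGG, Col3a1 holds 1 TATAAA and neither of the others, and Col5a1 holds 2 GGGCGG. RefSeq entries were given for 35 of the 44 members, and their 250 upstream bases were searched on both strands for these letters, for GGAATG (bound by TEAD factors, the partners of YAP) and for TGGGAA (bound by RBPJ). GGAATG and TGGGAA have the letters GGAA in common and can overlap. CCAAT was present for 13 of the 35 collagens (37.1%) against 37.5% of 27025 genes, TATAAA for 5 (14.3%) against 14.3%, and GGGCGG for 21 (60%) against 35.4%. GGAATG was present for 4 (11.4%) against 14.4% and TGGGAA for 12 (34.3%) against 24.1%. Among the 9 collagens that rose and have an entry, CCAAT was found for 5, GGGCGG for 6, GGAATG for 2 (Col3a1 and Col6a2) and TGGGAA for 1 (Col4a5). Among the 3 lower collagens, CCAAT was found for 1, GGGCGG for 3, GGAATG for 1 and TGGGAA for 2. These matches describe letters in a window and nothing about a factor.

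Type IV collagen forms the network of basement membranes, and 5 of its 6 genes were above background in every mouse. Of these 5, Col4a1, Col4a2 and Col4a5 were higher, Col4a6 was lower and Col4a4 did not pass, while Col4a3, also called higher, was read in the Rbpj-/- mice alone. The shares over all tested genes were 14.6% higher and 19.6% lower, and the lower count is near its share. Col4a1 and Col4a2 encode the chains of the ubiquitous network. Col4a1, read at chr8:11199009-11199068 (mm9, minus strand), was at 1.93, 1.12, 1.53 and 1.83 in Rbpj+/+ and at 3.52, 3.28 and 3.09 in Rbpj-/- liver. All 3 Rbpj-/- mice were more than 1 unit above the highest control, and the log2 fold change was 1.69 ± 0.24 (SE, adjusted p = 0.00273), a 3.24-fold higher signal. This probe is spotted 10 times on each array, and the SD between its spots was 0.04 to 0.11 on the log2 scale, below the SD between mice of 0.37 in Rbpj+/+ and 0.22 in Rbpj-/- liver. Col4a2, at chr8:11448840-11448899 (mm9, plus strand), was at 1.88, 1.25, 1.37 and 1.62 in Rbpj+/+ and at 3.04, 2.74 and 2.61 in Rbpj-/- liver, again without overlap. The log2 fold change was 1.27 ± 0.22 (SE, adjusted p = 0.00581), and both genes were called in each of the 19 alternatives.

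Col4a3, Col4a4 and Col4a5 encode the chains that assemble into the network of specialised basement membranes such as that of the kidney glomerulus. Col4a3 was at -5.96, -4.06, -4.01 and -5.17 in Rbpj+/+ and at -1.99, -3.27 and -2.29 in Rbpj-/- liver. The probe was well above background in none of the 4 controls and in all 3 Rbpj-/- mice, so only a lower bound can be given, at least 1.82-fold higher (adjusted p = 0.0149). The gene entered the test through the Rbpj-/- mice alone, and its p is therefore no independent support. With normexp correction the difference was 0.05 and was not called (adjusted p = 0.815). Col4a4 was at -2.78, -1.58, -1.43 and -1.70 in Rbpj+/+ and at -1.57, -2.15 and -1.80 in Rbpj-/- liver, so the groups overlapped, and the difference of 0.03 had a 95% interval from -0.73 to 0.79 (adjusted p = 0.952). Its second tested probe gave 0.46 (adjusted p = 0.488). Col4a5, on the X chromosome, was at -0.85, -0.22, -0.45 and -1.05 in Rbpj+/+ and at 0.21, 0.55 and 0.72 in Rbpj-/- liver. The log2 fold change was 1.14 ± 0.25 (SE, adjusted p = 0.0143), and this was the only one of the 12 collagens that rose for which -/-_N3 was the lowest and -/-_2866 the highest Rbpj-/- mouse.

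Col4a6, a chain found with that of Col4a5 in the basement membranes of smooth muscle and some epithelia, was at -1.22, -0.92, -1.34 and -1.07 in Rbpj+/+ and at -1.60, -1.96 and -1.48 in Rbpj-/- liver. The groups did not overlap and the signal fell by 0.54 (SE 0.20, adjusted p = 0.0831). This call was lost without +/+_1155, +/+_1156, +/+_1024, +/+_991, -/-_N3 or -/-_N5 and kept without -/-_2866, with a range from -0.64 to -0.36 over the 19 alternatives and a call in 5 of them.

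**Figure D2:**
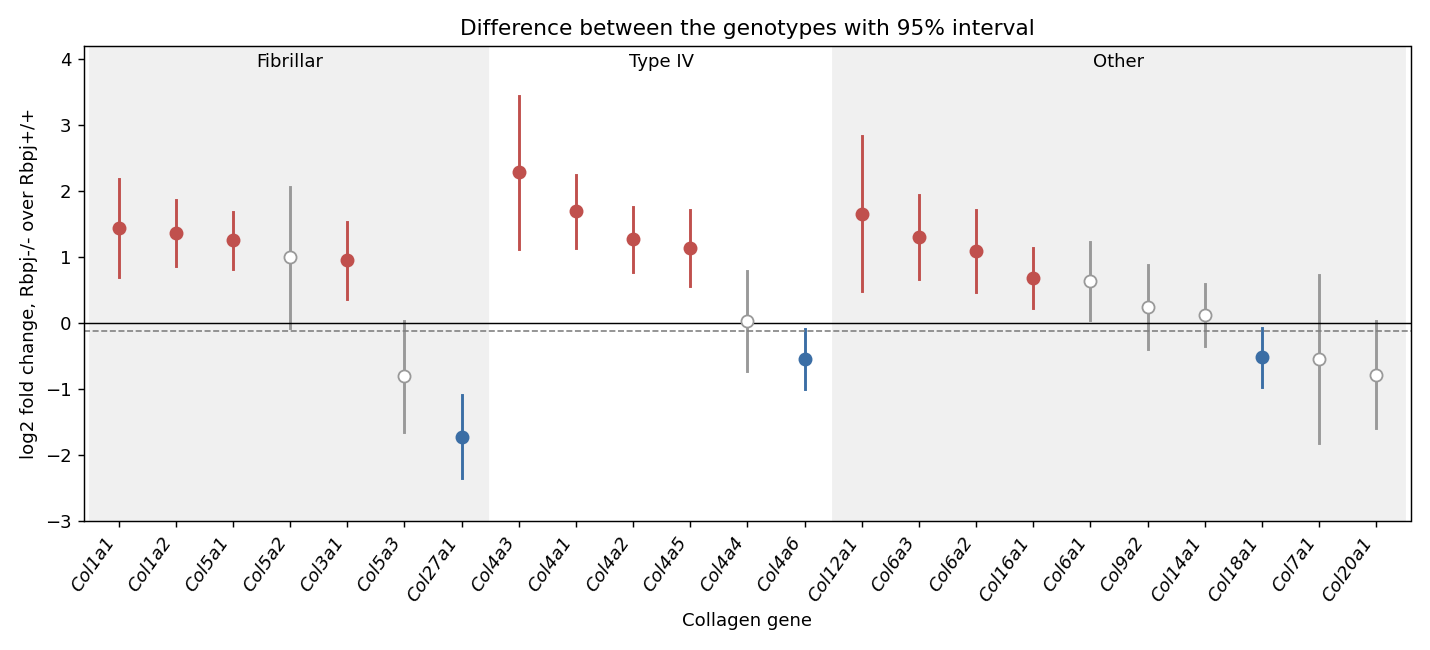
Log2 fold change of Rbpj-/- over Rbpj+/+ (y axis) for the 23 tested collagen genes with the 95% interval of the fit (vertical lines), ordered by size within the fibrillar, type IV and other groups. Red points were called higher (12 genes), blue points lower (3 genes), open grey points were not called (8 genes), and the dashed line is the median over all tested genes, -0.13.

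Collagen genes often lie side by side, and the 5 neighbouring pairs with both genes tested allow the response of close genes to be compared mouse by mouse. For each pair the difference of the log2 signals was formed within each array and compared between genotypes with a two-sided exact permutation test, which has 35 ways to assign the 7 mice and in which 0.0571 is the smallest p that can occur, so no pair can pass 0.05. On chromosome X, Col4a6 and Col4a5 went opposite ways. Their difference was -0.88 to -0.02 in Rbpj+/+ and -2.51 to -1.82 in Rbpj-/- liver, a shift of -1.68. Since neither gene overlapped between the genotypes and their directions differed, the exact test could only give its smallest p. The exact permutation p (0.0571, adjusted over the 5 pairs 0.0714) is therefore no support beyond the values of each gene. For Col4a4 and Col4a3 on chromosome 1 no shift is given, because the Col4a3 probe was above background in 0 of 4 controls. On chromosome 8, Col4a1 and Col4a2 both rose and the rise of Col4a1 was larger by 0.43, with differences of -0.14 to 0.21 in Rbpj+/+ and 0.47 to 0.54 in Rbpj-/- liver (exact permutation p = 0.0571, adjusted 0.0714). On chromosome 10, the shift of Col6a2 was larger than that of Col6a1 by 0.46 (same p values), and this turned to -0.20 after normexp correction. On chromosome 1, Col3a1 and Col5a2 shifted by -0.05 relative to each other (exact permutation p = 1.0), with a range from -0.39 to 0.93 over the alternatives.

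**Figure D3:**
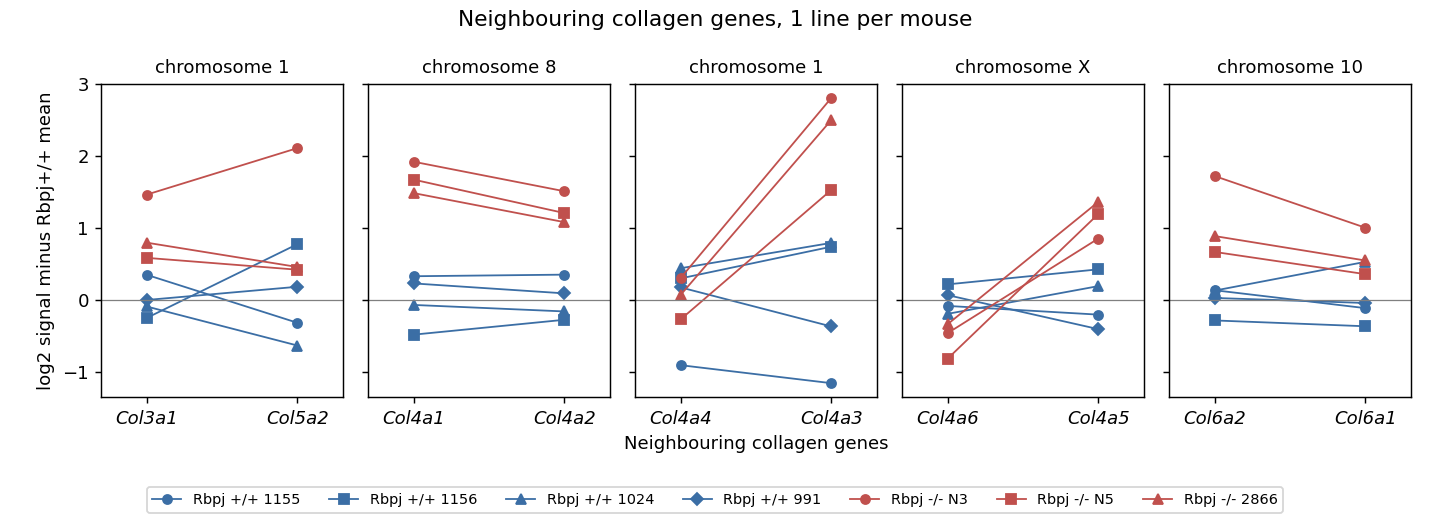
Log2 signal minus the Rbpj+/+ mean (y axis) of the 5 pairs of neighbouring collagen genes, with 1 line per mouse joining its values for both genes, Rbpj+/+ in blue and Rbpj-/- in red. For Col4a6 and Col4a5 all 3 Rbpj-/- lines run from below to above the controls, whereas for Col4a1 and Col4a2 both ends lie above them, and the Col4a3 values of the 4 controls are not above background.

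The sequence ahead of the pair that diverged is shown because these genes start close together and are read in opposite directions (RefSeq, GRCm38.p6). The stretches are chrX:141474096-141474326, minus strand, for Col4a6 and chrX:141475169-141475369, plus strand, for Col4a5, with the same capitals as above.
Col4a6 upstream: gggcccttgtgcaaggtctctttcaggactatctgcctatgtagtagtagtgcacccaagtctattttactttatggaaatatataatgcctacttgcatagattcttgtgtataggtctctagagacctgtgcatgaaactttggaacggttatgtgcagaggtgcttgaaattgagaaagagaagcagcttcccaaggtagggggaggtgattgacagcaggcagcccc
Col4a5 upstream: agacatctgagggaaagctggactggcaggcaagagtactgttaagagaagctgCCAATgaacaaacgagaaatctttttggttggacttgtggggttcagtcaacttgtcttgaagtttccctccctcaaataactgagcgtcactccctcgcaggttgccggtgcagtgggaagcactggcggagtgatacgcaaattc
The printed Col4a5 stretch holds 1 CCAAT and the printed Col4a6 stretch none of the 3 boxes, with 49.8% and 45.5% G and C. These stretches leave out 49 and 19 of the 250 upstream bases. The full 250 bases hold a GC box for both genes, so its absence here comes from the cut. For Col4a1 and Col4a2 no stretch is printed, because each lies within the annotated bounds of the other gene.

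Of the other collagens, 4 of 10 tested genes were higher, 1 was lower and 5 did not pass, and of the 9 above background in every mouse 3 were higher and 1 was lower, with a median log2 fold change of 0.25 over the 9. Beside 14.6% higher and 19.6% lower over all tested genes, the lower count is no larger than its share. Col6a1, Col6a2 and Col6a3 encode the chains of type VI collagen, which forms beaded filaments around cells. Col6a3 was at 1.40, 0.33, 0.82 and 1.0 in Rbpj+/+ and at 2.54, 1.94 and 2.10 in Rbpj-/- liver, without overlap, a log2 fold change of 1.30 ± 0.28 (SE, adjusted p = 0.0128). Col6a2 was at -0.93, -1.35, -0.93 and -1.04 in Rbpj+/+ and at 0.66, -0.39 and -0.17 in Rbpj-/- liver. Each Rbpj-/- value was above each control, with -/-_N3 well above the other two, and the log2 fold change was 1.09 ± 0.27 (SE, adjusted p = 0.0229). Col6a1 differed by 0.64 with a 95% interval from 0.04 to 1.23 and did not pass (adjusted p = 0.110). The mouse +/+_1024, at 3.27, lay within the Rbpj-/- values of 3.1 to 3.75. The gene passed without +/+_1024 (adjusted p = 0.0672) and, with all mice, in 5 of the other alternatives, such as quantile normalisation (0.0997) and normexp correction (0.0175).

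Col12a1, Col14a1, Col16a1, Col20a1 and Col9a2 belong to the collagens that sit on the surface of fibrils and link them to other matrix. Col12a1 was at -2.75, -4.04, -4.24 and -3.04 in Rbpj+/+ and at -1.27, -1.28 and -3.02 in Rbpj-/- liver. Mice -/-_N3 and -/-_N5 were above all controls and mouse -/-_2866 lay among them, and the probe was above background in 1 of the 4 controls and entered the test through the Rbpj-/- mice alone. The log2 difference of 1.66 ± 0.52 (SE, adjusted p = 0.0476) thus rests largely on control signals at background, and the call was lost without +/+_1024 (adjusted p = 0.12), without -/-_N3 (0.151), without -/-_N5 (0.168) and with normexp correction, where the difference was 0.13 (adjusted p = 0.550). Col16a1 had a log2 fold change of 0.69 ± 0.20 (SE, adjusted p = 0.0387), with 1.0 to 1.45 in Rbpj+/+ and 1.84 to 2.03 in Rbpj-/- liver. Its second tested probe gave 0.47 (adjusted p = 0.134), and the call was lost without -/-_N3 (adjusted p = 0.118) and without -/-_N5 (0.101). Col14a1 differed by 0.12 with an interval from -0.35 to 0.59 (adjusted p = 0.705), and its second probe by 0.53 (adjusted p = 0.218). Col9a2 differed by 0.25 (adjusted p = 0.544) and Col20a1 by -0.78 (adjusted p = 0.144). Col20a1 passed as lower in 5 of the 19 alternatives. Among them were the fit without +/+_1155 (adjusted p = 0.0754) and, with all mice, normexp correction (0.0367) and quantile normalisation (0.0856).

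Col18a1, a basement membrane collagen whose end fragment is endostatin, was at 7.14, 6.86, 7.40 and 7.11 in Rbpj+/+ and at 6.47, 6.59 and 6.77 in Rbpj-/- liver. The signal fell by 0.52 (SE 0.20, adjusted p = 0.0866) without overlap, and its second probe fell by 0.63 (adjusted p = 0.0712). The call of the first probe was kept without +/+_1156 and lost without each of the other 6 mice, and the difference was -0.23 after quantile normalisation (adjusted p = 0.259). Col7a1, the anchoring fibril collagen, differed by -0.55 with an interval from -1.82 to 0.73 (adjusted p = 0.502). Its highest values were those of +/+_1156 (0.12) and -/-_N3 (-0.46), the arrays that stood apart, and without both it passed as lower (adjusted p = 0.0442).

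The 21 collagen genes without a tested probe give no comparison. They include Col2a1, Col11a1, Col11a2 and Col24a1 of the fibrillar group and Col8a1, Col15a1 and Col25a1 of the others. Of the 21, 9 had no probe above background on any array, 9 were above background on +/+_1156 or -/-_N3 and on no other array, and 3 on at least 1 of the other 5 arrays. By array, 7 were above background on +/+_1156, 12 on -/-_N3, 3 on +/+_991 and 0 on +/+_1155, +/+_1024, -/-_N5 and -/-_2866. Detection of these genes therefore followed the arrays that stood apart, 1 of each genotype.

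The genes that make, trim, bind, sense and degrade collagen were read in the same fit, from lists chosen by function. Of 15 tested genes of collagen synthesis and folding (17 listed), 6 were higher and 2 were lower by their brightest probe, against 14.6% and 19.6% of all tested genes, and the 2 include Plod1, whose probes moved in opposite directions. The median log2 fold change of the list was 0.14. Fkbp10, a chaperone of procollagen in the endoplasmic reticulum, rose by 1.5 ± 0.24 (SE, adjusted p = 0.00437) without overlap. Plod2, which hydroxylates the lysines used in pyridinoline cross-links, differed by 1.77 ± 0.44 (SE, adjusted p = 0.0226), but was above background in 1 of 4 controls and entered the test through the Rbpj-/- mice alone, and was -0.066 after normexp correction (adjusted p = 0.742) and not called without both -/-_N3 and +/+_1156 (adjusted p = 0.124). Plod1, the related enzyme that acts within the helix, has no single direction, because its brighter probe fell by 1.44 (adjusted p = 0.00324) and its other probe rose by 1.11 (adjusted p = 0.0132), with a mean of -0.17 over both (adjusted p = 0.522). Serpinh1, the collagen chaperone HSP47, was at 2.82, 2.31, 2.91 and 2.85 in Rbpj+/+ and at 3.90, 2.84 and 3.09 in Rbpj-/- liver, and -/-_N5 lay among the controls. It differed by 0.55 ± 0.29 (SE) and did not pass (adjusted p = 0.188).

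Of 10 tested genes of processing and cross-linking (12 listed), 4 were higher and 2 were lower, with a median of 0.44, where 14.6% and 19.6% of all tested genes were higher and lower. The lower count is thus near that background. Loxl2, a lysyl oxidase active on type IV collagen, rose by 1.49 ± 0.38 (SE, adjusted p = 0.0251), and its other 2 probes rose too, by 1.64 (adjusted p = 0.00382) and 0.79 (adjusted p = 0.0176). Loxl4, of the same family, fell by 1.82 (SE 0.39, adjusted p = 0.0123), while its other tested probe gave -0.94 and was not called (adjusted p = 0.238). The calls of Loxl2 and Loxl4 were lost without a filter on dim probes (limma, adjusted p = 0.165 and 0.109). Pcolce2, an enhancer of procollagen cleavage, rose by 1.07 ± 0.29 (SE, adjusted p = 0.0302). Its call was lost without -/-_N3 (adjusted p = 0.103) and without a filter on dim probes (0.185). Lox was not tested, being above background in 0 of 4 controls and 2 of 3 Rbpj-/- mice.

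Of 10 tested fibril-binding matrix genes (13 listed), only Lum, the proteoglycan lumican, was higher, by 1.97 ± 0.29 (SE, adjusted p = 0.00293), and only Podn, podocan, was lower, by 0.99 (SE 0.26, adjusted p = 0.0259), counts no larger than the shares over all tested genes (14.6% and 19.6%). The call of Podn was lost without -/-_N5 (limma, adjusted p = 0.103) and without a filter on dim probes (0.171). Of 8 tested receptors (10 listed), 2 were higher and 0 were lower by their brightest probe (limma, 2 at an unadjusted p below 0.05). Over all tested genes the shares were again 14.6% and 19.6%. The dimmer probes of Itga1 (-0.64, adjusted p = 0.0916) and Itga10 (-0.89, adjusted p = 0.0763), collagen-binding integrins, were called lower. Ddr1, a receptor tyrosine kinase for collagen, was at -1.53, -2.10, -1.84 and -1.19 in Rbpj+/+ and at 1.19, 1.08 and 0.28 in Rbpj-/- liver, a clear gap, with a log2 fold change of 2.51 ± 0.30 (SE, adjusted p = 0.00135). Lair1, an inhibitory receptor of immune cells, rose by 0.61 ± 0.18 (SE, adjusted p = 0.0418). Its call was lost without +/+_991 (adjusted p = 0.103), -/-_N3 (0.130) or -/-_N5 (0.117), and without a filter on dim probes (0.233).

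Of 8 tested genes of degradation (12 listed), 5 were higher and 0 were lower (limma, 5 at an unadjusted p below 0.05). The list holds proteases and also their inhibitors, the Timp genes. Its counts therefore mix opposite functions, and the 5 include the inhibitor Timp1. The shares over all tested genes were 14.6% higher and 19.6% lower. Timp1 and Mmp8 entered the test through the Rbpj-/- mice alone. With probes above background in every mouse, 3 of 6 genes were higher and 0 were lower, against 13.8% and 22.8% of 16556 genes. Timp1, the inhibitor of matrix metalloproteinases, was at -2.04, -3.27, -4.73 and -0.92 in Rbpj+/+ and at 3.33, 2.26 and 0.62 in Rbpj-/- liver. The spread was wide in both genotypes (SD of 1.64 and 1.36) but smaller than the difference of 4.81 ± 0.89 (SE, adjusted p = 0.00764). The probe was above background in 2 of 4 controls, so the size depends on signals at background, and with normexp correction it was 2.54 (adjusted p = 0.00348). Mmp8, neutrophil collagenase, was above background in 1 of 4 controls and differed by 2.01 ± 0.59 (SE, adjusted p = 0.0399), and the call was lost without +/+_1024 (adjusted p = 0.102), without -/-_N3 (0.126) and with normexp correction, where the difference was 0.16 (adjusted p = 0.541). Ctsk, the collagen-cleaving cathepsin K, rose by 1.24 ± 0.26 (SE, adjusted p = 0.0119).

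**Figure D4:**
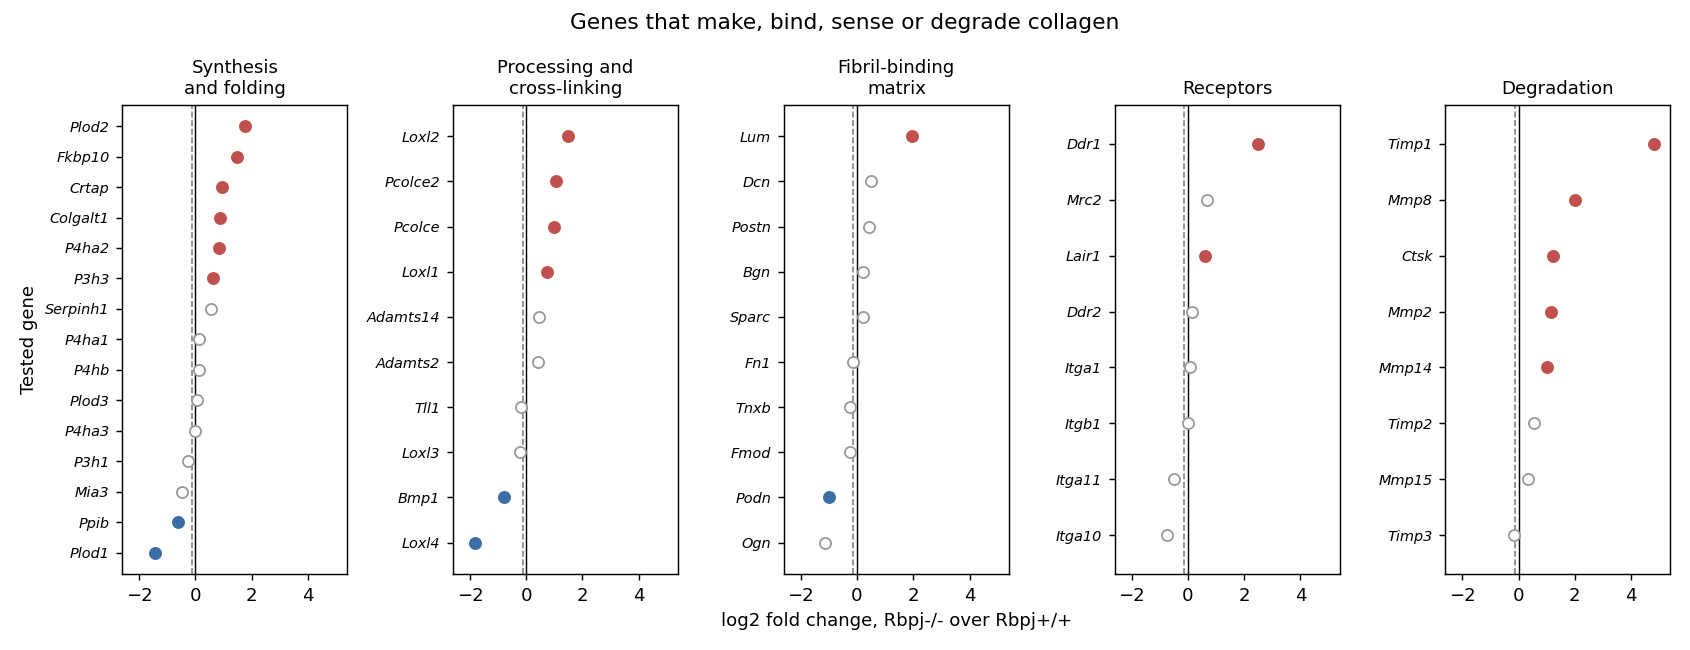
Log2 fold change of Rbpj-/- over Rbpj+/+ (x axis) for each tested gene of the 5 lists (y axis, 15, 10, 10, 8 and 8 genes). The degradation list holds proteases and their inhibitors, the Timp genes. Red points were called higher, blue points lower and open grey points were not called, the dashed line is the median over all tested genes (-0.13), and Timp1 lies farthest to the right at 4.81 (2.54 with normexp correction).

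Markers of several cell types moved with the collagens, and their part in the collagen differences was not tested. The counts of called markers stand beside 14.6% higher and 19.6% lower over all tested genes, and each list is short. Marker levels were summed over a list on the linear scale, where 1 is the level of the 75th percentile of the array. The probes with the largest signals weigh most in such a sum, so its range need not hold for the rest of a list. Myofibroblast markers (Acta2, Tagln, Cnn1, Actg2) were at 8.72 to 14.1 in Rbpj+/+ and 19.9 to 28.4 in Rbpj-/- liver, with 4 of 4 higher. Cnn1 was above background in 0 of 4 controls and Actg2 in 3 of 4, so both entered the test through the Rbpj-/- mice alone. Acta2 and Tagln were above background in every mouse. Portal fibroblast markers were at 4.60 to 7.95 and 7.04 to 9.95, with 3 of 5 higher. Stellate cell markers were at 30.9 to 42.7 and 40.9 to 47.4, with 3 of 8 higher (Cygb, Lrat and Pdgfrb) and Reln and Hand2 at differences of 0.01 and 0.08. Sinusoidal endothelial markers were at 47.3 to 71.0 and 88.6 to 140.1, with 3 of 6 higher, and vascular endothelial markers at 18.2 to 27.3 and 25.0 to 32.3, with 2 of 4 higher and Kdr lower. Macrophage markers were at 71.2 to 94.2 and 243 to 326, with 4 of 6 higher. Marco, with a log2 fold change of 2.925, had the largest signal of that list in each Rbpj-/- mouse and weighs most in those sums. Hepatocyte markers were at 3078 to 3969 and 1826 to 2225, with 4 of 6 lower and 0 higher (limma, 4 at an unadjusted p below 0.05), and all 6 were above background on all 7 arrays. Cholangiocyte markers were at 3.95 to 4.41 and 4.79 to 12.0, with Sox9 and Spp1 higher of 6 tested, while the duct keratins Krt19 and Krt7 differed by 0.25 (adjusted p = 0.532) and -0.45 (adjusted p = 0.656). Spp1, at log2 values of 3.06, 2.83 and 1.56 in -/-_N3, -/-_N5 and -/-_2866, had the largest signal of the list there. The gap between the cholangiocyte sums thus rests largely on Spp1, and the list was not summed without it. Apart from Cnn1, each listed marker was above background in at least 1 mouse of each genotype, and Epcam, above background in 2 of 4 and 1 of 3 mice, was not tested.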

How the data were processed

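Whole-liver RNA of 7 mice was hybridised by the authors to Agilent SurePrint G3 Mouse GE arrays with 1 dye (Cy3), 1 array per mouse, and scanned with Feature Extraction 10.7.3.1, per the submitters' processing notes. The deposited scanner values are spot intensities after background subtraction and detrending, not normalised between arrays, and probe positions are those of the array design (mm9). The deposited value table of the series holds log2 values. Set against the scanner values it matched quantile-normalised log2 intensities centred on the median of each probe (r from 0.9997 to 1.0), with column medians from -0.0039 to 0, and it served as an alternative. The study's methods instead name a shift to the 75th percentile with a median baseline, and with values so made here r was 0.776 to 0.876.

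Spots marked as outliers were left out (146 probe values), spots of 1 probe were averaged (432 probes with several spots), and log2 intensities were expressed relative to the 75th percentile of each array. No spot was saturated. Probes that every array of 1 genotype or of both read well above background were tested with limma 3.58.1 (R 4.3.3, lmFit and eBayes, Rbpj-/- against Rbpj+/+), with Benjamini-Hochberg adjustment over 24548 probes and a threshold of 0.1. Positive log2 fold changes are higher in Rbpj-/- liver. A gene was read by its brightest tested probe, and of the 4 collagens with several tested probes none had probes that differed in sign. Where no array of a genotype was above background, the fold is a lower bound against the lowest signal that was. The code was tested on simulated data. Neighbouring genes were compared with SciPy 1.17.1 and promoter sequences came from RefSeq (GRCm38.p6).

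Each collagen with a tested probe could be named, and values by mouse are given for those called in the fibrillar and type IV groups and for the 3 of the others with the largest change. From the lists of synthesis, processing, fibril-binding, receptor and degradation genes, up to 3 called genes with the largest change were named, besides Serpinh1, Lox and Timp1. Values by mouse for Col4a4, Col5a2, Col5a3, Col6a1, Col16a1, Col18a1, Ddr1 and Serpinh1, and Itga1, Itga10 and the marker genes named, were chosen after the values were seen. The members and all gene lists, cell type markers included, were chosen with earlier results of these data known. The p-values measure the spread between these mice, and their precision is limited by how many arrays there are. There were 19 alternatives in background correction, normalisation, probe filter, probe summary, test, threshold and arrays left out.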

Additional observations from a re-analysis of the deposited data

Results flagged for a closer look

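Among the 23 tested collagens, the 4 Rbpj+/+ mice held 1 value that stood far from the other 3. Col7a1 was at 0.12 on array +/+_1156, against -1.67 to -1.43 on the other Rbpj+/+ arrays, a gap of 0.866 of the whole range, which is past the 95% critical value of Dixon's test. Such a gap occurs by chance in about 5% of groups, so 1 among 23 is near what chance gives. Array +/+_1156 is also 1 of the 2 arrays with a high median intensity.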

How the results depend on the processing

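Over the 19 alternatives no collagen that was called changed sign, and Col1a2, Col5a1, Col27a1, Col4a1 and Col4a2 were called in all of them. Without a filter on dim probes, where 35715 genes were tested and 968 were higher and 674 lower, the calls higher and lower were 4 and 1 for all collagens, 2 higher for the fibrillar and 2 and 0 for the type IV genes, 0 and 0 for the others, 1 and 1 for synthesis and 0 and 0 for processing, with 0 fibril-binding genes lower, 1 receptor and 1 degradation gene higher. With quantile normalisation and no filter, chosen after seeing the data, 1 collagen, 0 type IV and 0 other collagens were lower and 2 others higher, with 1 synthesis gene lower, 1 and 0 processing genes, 0 fibril-binding genes lower and 1 receptor higher. The type IV count lower was 0 with quantile normalisation, the percentile over detected probes, limma-trend, a threshold of 0.05, the authors' value table and without both +/+_1156 and -/-_N3. A threshold of 0.05 left 1 collagen lower, 0 others lower and 1 synthesis gene lower. Array weights gave 2 other collagens lower and 2 and 2 fibril-binding genes. Normexp gave 1 synthesis gene lower, 3 and 2 fibril-binding genes and 2 receptors lower, and quantile normalisation and the authors' table each gave 1 synthesis gene lower and 3 fibril-binding genes higher. The percentile over detected probes gave 2 fibril-binding genes higher, limma-trend 2 lower, and detection on all 7 arrays 2 lower with 3 degradation genes higher. Without both arrays, 2 other collagens and 3 synthesis genes were higher, with 2 and 4 fibril-binding genes.

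Leaving out 1 mouse at a time gave 10 to 13 collagens higher and 1 to 3 lower, 4 to 5 and 1 to 2 for the fibrillar genes, 4 and 0 to 1 for type IV, 2 to 4 and 0 to 1 for the others, 4 to 7 and 0 to 3 for synthesis, 2 to 4 higher for processing, 0 to 2 lower for fibril binding, 1 to 2 higher for receptors and 4 to 6 higher for degradation. Plod2 turned to -0.066 with normexp, and Plod1, which ranged from -1.56 to 1.12 when 1 mouse was left out, to 1.12 without +/+_1155 and 0.98 without +/+_991, because its other probe was then the brighter one tested. The cause of the other changes was not tested. The median over all genes was -0.13 by the percentile, -0.04 by quantiles and -0.07 by normexp, and that of the collagens 0.95, 1.10 and 0.19. No paired analysis was possible because the replicate names are those of single mice and none is shared between the genotypes. The 21 collagens without a tested probe were limited by signal over background.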
